A study of Mus musculus with 24 samples.

Results

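The promoters described here belong to mouse genes named Zfp followed by a number on chromosomes 2, 7 and 17. ATAC-seq gave their accessibility: a transposase places sequencing adapters where chromatin is open, and the resulting reads are counted. Members were the intervals (consensus peaks) on these chromosomes whose nearest annotated gene was protein-coding, carried such a name and had its transcription start site (TSS) within 1000 bp. This rule found 112 intervals of 145143, which belong to 111 genes: 14 intervals lie on chromosome 2, 66 on chromosome 7 and 32 on chromosome 17. Zfp598 alone has 2 intervals.

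Zinc finger proteins of this family mostly carry arrays of C2H2 fingers that read DNA sequence. Many also carry a KRAB domain, which recruits the corepressor TRIM28 and the histone methyltransferase SETDB1, so that the bound DNA gains H3K9 methylation. In embryonic stem cells they are best known for silencing transposable elements. The genes arose by repeated local duplication and lie in clusters, several of them on chromosomes 2, 7 and 17. Not every gene with the name is of this kind: Zfp36 encodes tristetraprolin, a CCCH protein that binds AU-rich elements in mRNA, and Zfp598 encodes a ubiquitin ligase that senses collided ribosomes.

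The study followed mouse embryonic stem cells after induction of Firre, a nuclear long noncoding RNA transcribed from the X chromosome. It used 4 lines: Firre knockout cells with an inducible Firre transgene (KO Firre), Firre knockout cells without it (KO control), wild type cells with the inducible transgene (WT Firre) and wild type cells without it (WT control). All lines received doxycycline, controls included. Libraries were taken at 0 min, before induction, and at 30, 60, 90, 120 or 150 min, with 1 library per line and time. Counts were analysed for 6 KO Firre, 6 KO control, 5 WT Firre and 6 WT control libraries, and WT Firre at 60 min was not analysed here. The labels describe no separate cultures or clones within a line, so the p-values rest on how libraries of the same line vary, and genotype and clone cannot be told apart.

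Totals ran from 5725518 to 14977148 counts in intervals per library, with a median of 7664147. All 10 embryonic stem cell markers listed had a promoter interval, against 2 of 8 fibroblast, 1 of 4 primitive endoderm and 2 of 4 neural markers. Intervals within 1000 bp of a TSS, whatever the gene type, took 32.2% of counts in KO Firre, 32.5% in KO control, 31.5% in WT Firre and 30.0% in WT control libraries (means). The share was 34.2% in the WT Firre library at 150 min, the highest of all. This promoter share moves with the lines in the comparisons below. The 20 intervals nearest to Firre summed to 18.4 to 28.9 CPM in KO Firre, 6.67 to 14.5 in KO control, 117 to 141 in WT Firre and 82.9 to 101 in WT control libraries. An exonic interval held most of the knockout signal, with means of 17.6 CPM in KO Firre, 7.27 in KO control, 25.7 in WT Firre and 2.07 in WT control, and the source of the KO control signal there was not tested.

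Promoters of 6 members are printed, those of Zfp57, a member of known role, and of 5 members with small p-values between the control lines on their chromosomes. Each sequence is the 250 bases before the RefSeq start, 5′ to 3′ on the gene's strand (GRCm38.p6, the assembly of mm10), and lies in its accessible interval except for the first bases of Zfp143. Capitals mark, on either strand, GGGCGG (the GC box bound by SP1), CCAAT (the NF-Y box), CCGGAA (an ETS core) and ATGGCG (a YY1 core).
Zfp78, chr7:6363058-6363307, plus strand: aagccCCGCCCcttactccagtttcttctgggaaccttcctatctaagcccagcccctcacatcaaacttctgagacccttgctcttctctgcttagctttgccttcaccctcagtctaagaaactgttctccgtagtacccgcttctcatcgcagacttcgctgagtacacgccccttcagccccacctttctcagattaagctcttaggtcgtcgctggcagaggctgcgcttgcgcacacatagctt
Zfp143, chr7:110061461-110061710, plus strand: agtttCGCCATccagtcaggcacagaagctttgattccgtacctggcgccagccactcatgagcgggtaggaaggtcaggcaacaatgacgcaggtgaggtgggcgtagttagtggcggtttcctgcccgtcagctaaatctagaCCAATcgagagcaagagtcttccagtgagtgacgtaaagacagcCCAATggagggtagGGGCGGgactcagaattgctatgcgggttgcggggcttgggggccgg
Zfp345, chr2:150485064-150485313, minus strand: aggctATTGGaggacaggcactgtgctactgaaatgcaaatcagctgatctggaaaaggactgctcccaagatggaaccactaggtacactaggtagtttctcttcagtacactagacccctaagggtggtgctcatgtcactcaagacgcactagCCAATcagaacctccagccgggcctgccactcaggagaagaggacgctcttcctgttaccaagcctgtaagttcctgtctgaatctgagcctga
Zfp53, chr17:21488738-21488987, plus strand: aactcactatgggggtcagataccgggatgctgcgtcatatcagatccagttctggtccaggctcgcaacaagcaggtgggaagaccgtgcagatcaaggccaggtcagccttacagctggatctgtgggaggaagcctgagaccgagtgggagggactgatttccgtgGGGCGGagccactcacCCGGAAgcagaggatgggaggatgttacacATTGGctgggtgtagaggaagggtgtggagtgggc
Zfp959, chr17:55891843-55892092, plus strand: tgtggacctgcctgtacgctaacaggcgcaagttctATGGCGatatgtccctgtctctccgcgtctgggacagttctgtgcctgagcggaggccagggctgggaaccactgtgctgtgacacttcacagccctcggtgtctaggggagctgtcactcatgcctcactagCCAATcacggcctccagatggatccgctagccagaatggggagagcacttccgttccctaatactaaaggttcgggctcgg
Zfp57, chr17:37002275-37002524, plus strand: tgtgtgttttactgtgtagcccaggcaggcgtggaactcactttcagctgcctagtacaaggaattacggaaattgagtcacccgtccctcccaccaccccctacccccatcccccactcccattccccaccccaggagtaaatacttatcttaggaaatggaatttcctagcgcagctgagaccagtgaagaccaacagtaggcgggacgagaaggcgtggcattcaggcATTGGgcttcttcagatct
Of the 6 printed promoters, those of Zfp143, Zfp345, Zfp53, Zfp959 and Zfp57 hold the CCAAT box, and those of Zfp78, Zfp143 and Zfp53 hold the GC box.

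RefSeq promoter windows (250 bases before to 50 after the start) were matched to 105 of the 112 intervals, and 88 windows overlap their interval. Motifs were counted in these 88 windows on both strands and set beside 6341 windows of protein-coding genes that overlap an accessible interval. The Zfp windows were poorer in CpG, with a median of 12 CpG per window against 19, and a median GC content of 53.8% against 60.7%. The GC box GGGCGG was present in 37.5% of Zfp windows against 64.0% of protein-coding windows, and the CCAAT box in 59.1% against 37.9%. CCGGAA stood in 34.1% against 25.2% and ATGGCG in 20.5% against 14.3%. These shares are descriptions and were not tested.

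The chromosomes differed in base content. Median CpG per window was 8 on chromosome 2 (9 windows), 14 on chromosome 7 (51 windows) and 10 on chromosome 17 (28 windows). The GC box was found in 1 of the 9 windows of chromosome 2, 18 of 51 on chromosome 7 and 14 of 28 on chromosome 17. Neighbours in a cluster were mostly diverged at the promoter: of 263 pairs from the same cluster, 2 reached 80% identity, Zfp747 with Zfp764 (86.3%) and Zfp942 with Zfp944 (84.3%). Reads of such copies may be split or lost, and how multiply mapping reads were treated is not given in the sources used here, so values for these 4 genes are uncertain.

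Accessibility of the Zfp promoters was moderate and close to that of promoters in general. Levels are given as library-scaled counts (CPM) per kb of interval, averaged over the 23 libraries. The median over the 112 intervals was 12.7 CPM per kb, against 13.2 for 125 Zfp promoter intervals on the other chromosomes, 11.2 for all 10361 protein-coding promoter intervals and 4.68 for all intervals. By chromosome the median was 9.17 on chromosome 2, 13.2 on chromosome 7 and 13.2 on chromosome 17, beside 10.7, 11.8 and 12.7 for the other protein-coding promoter intervals of chromosomes 2, 7 and 17.

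The levels spanned from 2.68 CPM per kb at Zfp772 to 67.6 at Zfp78, both on chromosome 7. Zfp143, a transcription factor that binds promoters and chromatin loop anchors, followed Zfp78 with 51.5 CPM per kb, and Zfp446 had 36.8. On chromosome 2, Zfp335, which works with an H3K4 methyltransferase complex, was highest with 27.8 and Zfp106, an RNA-binding protein, was lowest with 4.11. On chromosome 17 the range was narrower, between 5.30 at Zfp952 and 25.2 at Zfp53, with Zfp959 at 24.8 and Zfp811 at 23.95. Over the 88 matched windows, CpG number and CPM per kb had a Spearman correlation of 0.36, given as a description across genes that share libraries and base composition.

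**Figure D1:**
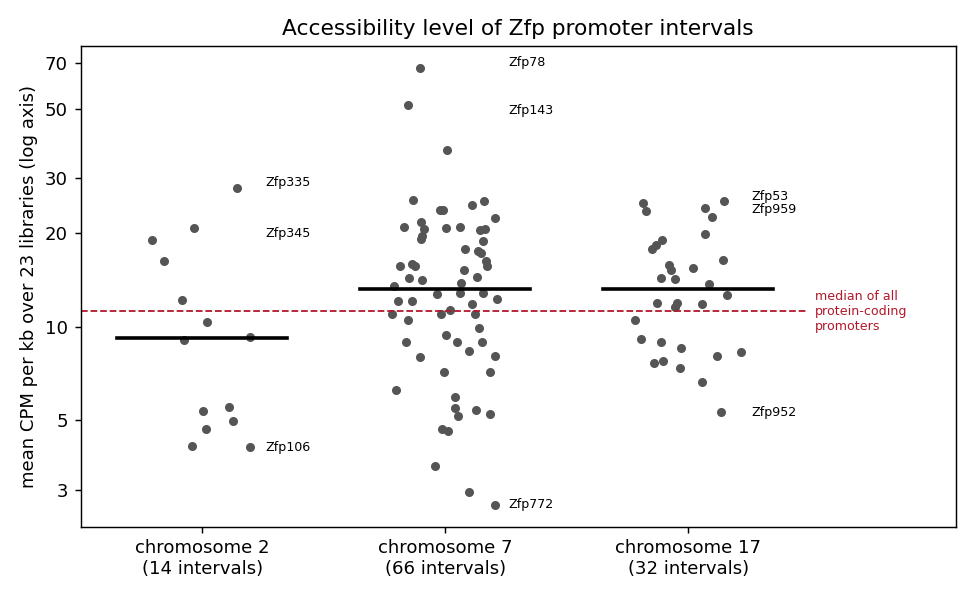
Mean CPM per kb over 23 libraries (log axis) for each Zfp promoter interval, by chromosome, with the median as a bar and the median of all protein-coding promoter intervals as a dashed line. Zfp78 (67.6) and Zfp143 (51.5) stand above the others, and the median of chromosome 2 (9.17) lies below the dashed line (11.2).

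Most intervals sat on the start itself. The deposited annotation called 80 of the 112 promoter-TSS, 19 intronic, 11 exonic and 2 at a transcription end site, and 65 lie within 250 bp of the start. The annotation named another gene than that of the nearest start for 10 intervals, among them Zfp143, Zfp335, whose interval lies in exon 1 of Zfp335os, and Zfp811, annotated to Gm26693. Not all of these are shared promoters: the annotation placed Zfp658 at a transcription end site and Zfp941 in an intron of another gene. At such intervals the opening cannot be assigned to 1 gene. The members nearest to the 1000 bp limit were Zfp710 (961 bp), Zfp442 (969 bp) and Zfp787 (982 bp), with 8.03, 12.2 and 3.56 CPM per kb, and the first beyond it were Zfp579 (1044 bp) and Zfp592 (1163 bp), with 7.17 and 6.35.

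The comparison of KO control with WT control asks how the promoters differ between lines with and without endogenous Firre when neither carries the transgene. In KO control cells 16 of 111 tested Zfp promoter intervals were higher and 0 were lower (edgeR quasi-likelihood test, Benjamini-Hochberg adjusted p of 0.05 or less over 129515 intervals). That is 14.4% of members, against 5.5% of all tested intervals and 20.7% of tested protein-coding promoter intervals called higher (2.47% and 0.713% were called lower). The Zfp share is thus above the share of all intervals and below that of promoters as a class, and 26 of 124 Zfp promoter intervals on the other chromosomes (21.0%) were also called higher. The median log2 fold change was 0.12 for the members, 0.13 for protein-coding promoters and -0.02 for all intervals. Zfp772 was not tested, with 4 to 16 counts per library.

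Zfp78, on chromosome 7 (mm10 chr7:6362269-6363535), had the largest difference. In KO control its lowest, median and highest libraries had 77.8, 92.7 and 125 CPM, against 53.6, 69.5 and 78.0 CPM in WT control. The groups touch by 1 pair of libraries only, KO control at 60 min and WT control at 120 min. The means were 98.6 ± 18.5 and 67.9 ± 8.19 CPM in KO control and WT control (SD, n = 6 each), a log2 fold change of 0.53 ± 0.09 (SE, edgeR adjusted p = 4.17e-05).

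Zfp143, in the interval chr7:110061488-110062278, had 37.3, 45 and 55.1 CPM in the lowest, median and highest KO control libraries, against 30.1, 33 and 34.3 CPM in WT control. Every KO control library was above every WT control library. The log2 fold change was 0.46 ± 0.09 (SE, edgeR adjusted p = 0.000155). Zfp446, the third of chromosome 7 by size (chr7:12977520-12978675), had 43.2, 47.9 and 55.2 CPM in KO control, against 32.5, 36.8 and 40.0 CPM in WT control, again with no overlap (log2 0.40 ± 0.08, edgeR adjusted p = 0.000439).

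On chromosome 2 the largest difference was at Zfp345 (chr2:150484471-150485703), with 22.9, 26.1 and 36.9 CPM in the lowest, median and highest KO control libraries, against 17.7, 21.3 and 23.5 CPM in WT control. Only the KO control library at 60 min fell within the WT control range (log2 0.42 ± 0.09, edgeR adjusted p = 0.000982). Its cluster neighbours Zfp120 (log2 0.34 ± 0.10) and Zfp442 (0.32 ± 0.10) were called too, and these 3 are all the calls of chromosome 2. They lie with another member within chr2:150136139-150485703.

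On chromosome 17, Zfp53 (chr17:21488628-21489520) had 20.6, 26.2 and 31.0 CPM in the lowest, median and highest KO control libraries, against 16.2, 19.3 and 23.7 CPM in WT control. The groups overlap at KO control 150 and 0 min (log2 0.40 ± 0.09, edgeR adjusted p = 0.00159). Zfp959 (chr17:55891418-55892654) had 29.3, 32.8 and 40.4 CPM in KO control, against 23.9, 26.3 and 28.9 CPM in WT control, with no overlap (log2 0.34 ± 0.09, edgeR adjusted p = 0.00571). Zfp760 (chr17:21706847-21708215) had 23.5, 27.3 and 35.9 CPM in KO control, against 20.6, 21.7 and 23.2 CPM in WT control, also with no overlap (log2 0.34 ± 0.09, edgeR adjusted p = 0.00654).

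The other 7 calls were Zfp667 (log2 0.33), Zfp28 (0.32), Zfp180 (0.27) and Zfp82 (0.26) on chromosome 7 and Zfp563 (0.36), Zfp945 (0.34) and the downstream Zfp598 interval (0.31) on chromosome 17. Their edgeR adjusted p-values ran from 0.0099 for Zfp667 to 0.0443 for Zfp82. In all, 5 of 111 members (4.5%) had every KO control library above every WT control library, against 2.29% of all tested intervals and 9.81% of protein-coding promoters. The members with the smallest p-values below 0 were Zfp764, Zfp111 and Zfp112 on chromosome 7, each with a log2 value of -0.22 and none called (edgeR adjusted p = 0.132, 0.201 and 0.349).

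**Figure D2:**
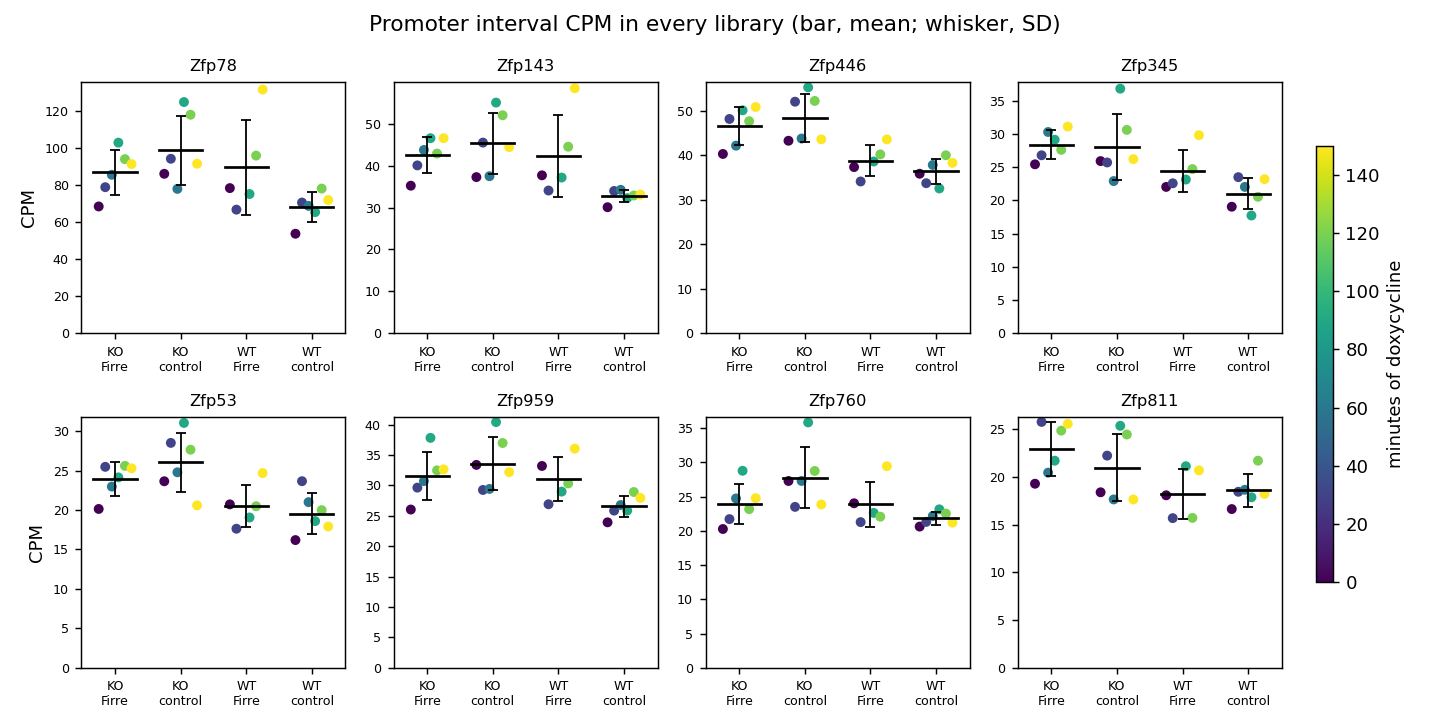
CPM in every library of 8 promoter intervals, with lines from left to right as KO Firre, KO control, WT Firre and WT control, points coloured by minutes of doxycycline, bars for the mean and whiskers for the SD. The KO control points of Zfp143 lie between 37.3 and 55.1 CPM, all above the WT control points (30.1 to 34.3), and the WT Firre library at 150 min is the highest WT Firre point for Zfp78 (131 CPM) and Zfp143 (58.5 CPM).

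By chromosome, 3 of 14 members were higher in KO control than in WT control on chromosome 2 (21.4%), 7 of 65 on chromosome 7 (10.8%) and 6 of 32 on chromosome 17 (18.8%). The other protein-coding promoter intervals of these chromosomes gave 13.6%, 15.4% and 17.9% for chromosomes 2, 7 and 17. The median log2 fold change of members was 0.09 on chromosome 2, 0.09 on chromosome 7 and 0.19 on chromosome 17, and with total counts it was -0.0040 on chromosome 2, -0.0032 on chromosome 7 and 0.09 on chromosome 17. On chromosome 17 loess offsets gave 0.053 and the promoter share as a covariate 0.037. The other promoters of the same chromosomes had medians of 0.08, 0.10 and 0.11 on chromosomes 2, 7 and 17. On chromosome 17, 29 of 32 members had a positive value (90.6%), against 70.8% of the other promoters there. No test of the difference between chromosomes was made.

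The largest cluster of chromosome 17, with 14 members from Zfp160 to Zfp944 (chr17:21008437-22361739), was picked out after its values were seen. All 14 had a positive log2 value, between 0.07 and 0.40 with a median of 0.25, where 74.2% of protein-coding promoters and 70.8% of the others on chromosome 17 were positive. Only Zfp53 and Zfp760 were called, 2 of 14, beside 17.9% of the other promoters of the chromosome called higher. The cluster median was 0.16 with total counts and 0.061 when the promoter share was a covariate, each with 13 of 14 positive. In KO Firre against WT Firre, which shares no library with this comparison, 12 of the 14 were positive with a median of 0.10, and 0 were called. There 66.5% of protein-coding promoters and 84.4% of all chromosome 17 members were positive. With total counts 9 of the 14 were positive there. The 10 members of the chromosome 7 cluster from Zfp180 to Zfp428 (chr7:24081273-24507875) had a median of 0.02 with 6 positive and 1 called, and the 13 from Zfp84 to Zfp146 (chr7:29766865-30170732) had a median of 0.08 with 10 positive and 1 called, beside 15.4% of the other promoters of chromosome 7 called higher. Differences between clusters were not tested. The 4 members from Zfp787 to Zfp28 (chr7:6141388-6383875) hold 3 of the 7 calls of chromosome 7, at Zfp78, Zfp667 and Zfp28. Over all 3 chromosomes, 90 of the 112 members lie in 13 clusters of 3 or more when starts within 500 kb are joined.

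These calls depend on how the libraries are scaled. Scaling to total counts gave 8 higher and 2 lower, and loess offsets 4 higher and 2 lower, with a median over protein-coding promoters of 0.03 and 0.01 in place of 0.13. With total counts 7.21% of members were called higher, against 2.98% of all tested intervals and 12.7% of protein-coding promoters. With loess offsets these shares were 3.60%, 2.74% and 5.12%. With the promoter share of each library as a covariate 0 of 111 members were called in KO control against WT control, and the Zfp78 value was -0.025. In that fit 13 of 129515 intervals and 0 of 10105 protein-coding promoters were called higher, so the 0 is not particular to the members. The share ran from 31.8% to 33.4% in KO control and from 29.3% to 30.5% in WT control, so line and share cannot be told apart there. Without the KO control libraries at 30 and 90 min 2 members were called, Zfp78 and Zfp143, both higher. That is 1.79% of members, against 1.25% of all tested intervals and 4.54% of protein-coding promoters called higher.

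**Figure D3:**
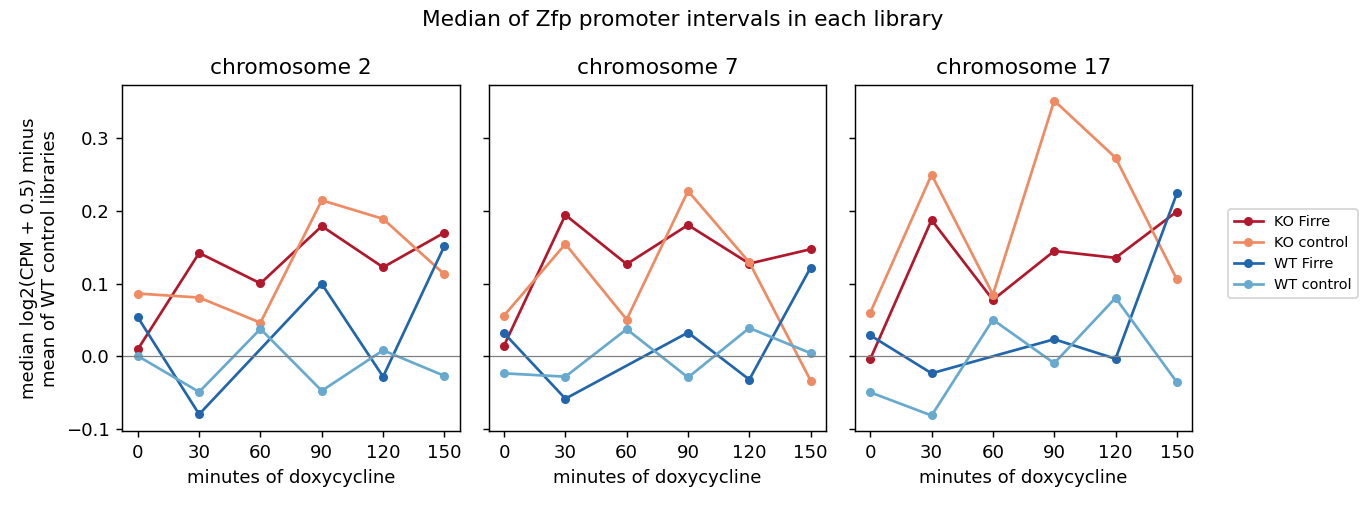
Median over the Zfp promoter intervals of log2(CPM + 0.5) minus the mean of the WT control libraries, for each library by minutes of doxycycline, in a panel per chromosome and a line per cell line. On chromosome 17 the KO control medians lie between 0.06 and 0.35, the WT control medians between -0.08 and 0.08, and the WT Firre line is highest at 150 min (0.22).

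KO Firre against WT Firre sets the same genotypes side by side with the transgene present in both. Here 1 of 111 members was called higher, Zfp811 on chromosome 17, and 0 were called lower, against 0.727% of all tested intervals and 1.02% of protein-coding promoters called higher (0.43% of all tested intervals were called lower). Zfp811 (chr17:32809539-32810380) had 19.3, 23.3 and 25.7 CPM in the lowest, median and highest KO Firre libraries, against 18.1, 15.7, 21.1, 15.7 and 20.7 CPM in WT Firre at 0, 30, 90, 120 and 150 min. The groups overlap at KO Firre 0 and 60 min (log2 0.34 ± 0.09, edgeR adjusted p = 0.0461), and DESeq2 gave an adjusted p of 0.148. Without WT Firre at 150 min, the library with the highest promoter share, 11 of 112 members were called higher (9.82%), against 2.26% of all tested intervals and 7.79% of protein-coding promoters in the same fit.

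Other members came near the threshold without being called. Zfp473, whose human homologue takes part in histone pre-mRNA processing, had 12.6, 13.6 and 16.1 CPM in the lowest, median and highest KO Firre libraries, against 10.1, 10.7, 11.6, 10.6 and 11.8 CPM in WT Firre at 0, 30, 90, 120 and 150 min, with no overlap (log2 0.35 ± 0.10, edgeR adjusted p = 0.0586). In all, 2 of 111 members had every KO Firre library above every WT Firre library (1.8%), against 0.866% of all tested intervals. Zfp658 had a log2 value of 0.31 ± 0.09 (edgeR adjusted p = 0.0658), and the smallest p-values below 0 were at Zfp523 (-0.18), Zfp952 (-0.15) and Zfp764 (-0.13). The median over members was 0.09, against 0.06 for protein-coding promoters.

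The 2 genotype comparisons share no library. Over the 111 members their log2 values had a Pearson correlation of 0.24 and a Spearman correlation of 0.29 (a description across intervals that share libraries within each comparison). These were below the values of protein-coding promoters (0.42 and 0.41), and all tested intervals had 0.34 and 0.28. Among the 16 members called higher in KO control the Pearson correlation was -0.33, against 0.19 for protein-coding promoters called higher. Of the 111 members, 79 had the same sign (71.2%), against 70.8% of protein-coding promoters. Of the 16 members higher in KO control, 15 were also positive in KO Firre against WT Firre (93.8%), against 90.0% of the 2087 protein-coding promoters called higher. The exception was Zfp78, which averaged 86.7 ± 12.1 CPM in KO Firre (SD, n = 6) and 89.4 ± 25.8 CPM in WT Firre (SD, n = 5). WT Firre at 150 min had 131 CPM there, above the other WT Firre libraries (66.6 to 95.8 CPM).

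**Figure D4:**
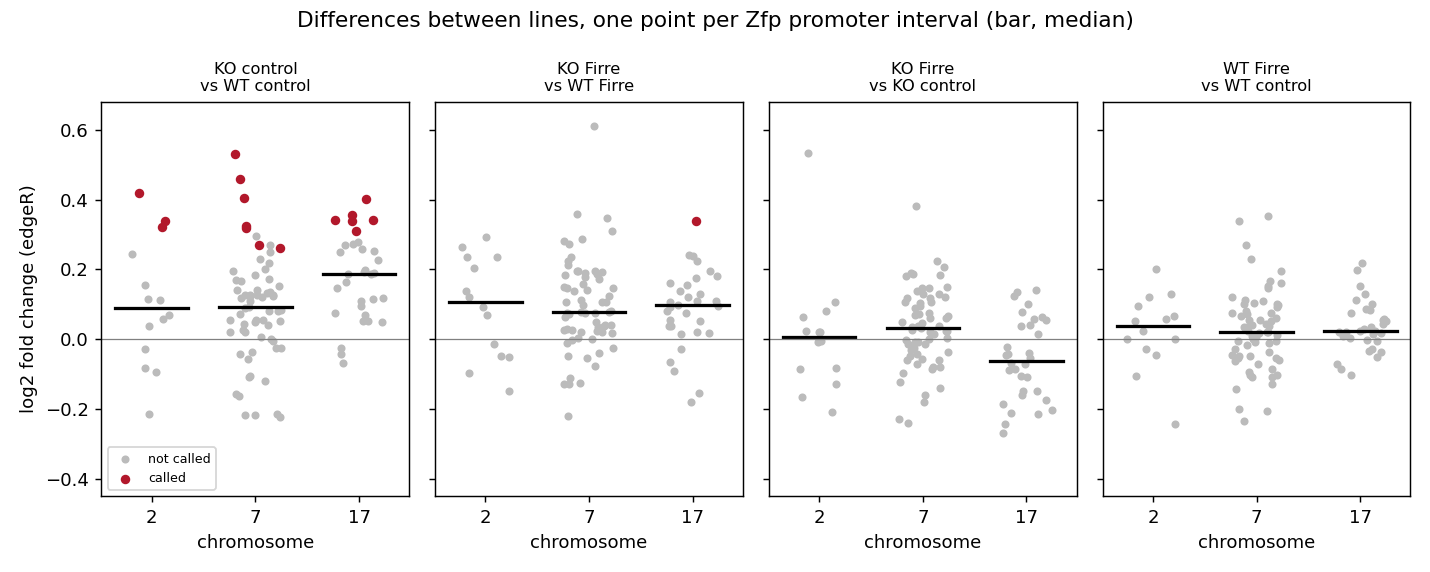
Log2 fold change (edgeR) of each tested Zfp promoter interval by chromosome in 4 comparisons of lines, with called intervals in red and medians as bars. The 16 called intervals of KO control against WT control lie between 0.26 and 0.53, 1 interval is called in KO Firre against WT Firre, and none in the 2 comparisons of transgenic with control lines.

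The question the time course was designed for is whether induced Firre changes accessibility, and the lines allow a transgenic line to be set against its matched control. These contrasts average all times, the uninduced 0 min libraries included, so differences between the lines and the effect of induction cannot be told apart in them. Without the 0 min libraries 0 members were called in either background. In that fit 0.327% of all tested intervals were called higher in the knockout background and 0.0443% in the wild type background. With so few calls anywhere, the 0 says little about the members. The change from 0 min has its own test over time. In the knockout background 0 of 111 members were called in KO Firre against KO control (background 0.913% of all tested intervals), by edgeR and by DESeq2, and 11 had an unadjusted p under 0.05 (9.91%, against 12.3% of all tested intervals). The members with the smallest p-values above 0 were Zfp217, Zfp420 and Zfp658. Zfp217, a corepressor partner known as an oncogene in human breast cancer, had 2.59, 3.47 and 3.89 CPM in the lowest, median and highest KO Firre libraries, against 1.67, 2.26 and 3.38 CPM in KO control (log2 0.53 ± 0.19, edgeR adjusted p = 0.182). At this level, a few times the 0.391 CPM that a count of 0 allows in a library of median depth, the groups overlapped. The members with the smallest p-values below 0 were Zfp945 (log2 -0.27), Zfp160 (-0.24) and Zfp629 (-0.24), with edgeR adjusted p-values of 0.197, 0.231 and 0.267. Zfp629 alone separated the lines (0.412% of all tested intervals had every KO Firre library below every KO control library), with 9.10, 10.6 and 11.1 CPM in KO Firre, against 11.2, 12.3 and 13.3 CPM in KO control. The median log2 value was 0.01 on chromosome 2, 0.03 on chromosome 7 and -0.06 on chromosome 17.

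In the wild type background 0 of 111 members were called in WT Firre against WT control (background 0.0818%), by edgeR and by DESeq2, and 7 had an unadjusted p under 0.05 (6.31%, against 7.55% of all tested intervals). The smallest p-values above 0 were at Zfp143, Zfp78 and Zfp667. Zfp143 had 37.7, 34.1, 37.2, 44.6 and 58.5 CPM in WT Firre at 0, 30, 90, 120 and 150 min, against 30.1, 33 and 34.3 CPM in the lowest, median and highest WT control libraries (log2 0.34 ± 0.09, edgeR adjusted p = 0.199). Zfp78 had 78.2, 66.6, 75.03, 95.8 and 131 CPM in WT Firre at those times, against 53.6, 69.5 and 78.0 CPM in WT control (log2 0.35 ± 0.10, edgeR adjusted p = 0.233). For both genes WT Firre at 120 and 150 min were the highest libraries, and WT Firre at 0 min, before induction, was also above every WT control library. Without WT Firre at 150 min the log2 values were 0.21 for Zfp143 and 0.18 for Zfp78. Zfp667 came next (log2 0.23 ± 0.09, edgeR adjusted p = 0.536). The smallest p-values below 0 were at Zfp790 (-0.24), Zfp773 (-0.20) and Zfp106 (-0.24), with edgeR adjusted p-values of 0.675, 0.765 and 0.824.

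The transgenic contrasts were then compared between backgrounds, knockout minus wild type. None of the 111 members was called (background 0.266% of all tested intervals), and DESeq2 called 0 members. Zfp78 came nearest, at -0.53 ± 0.14 on the log2 scale (edgeR adjusted p = 0.0522), followed by Zfp143 at -0.43 ± 0.13 (edgeR adjusted p = 0.124) and Zfp760 at -0.32 ± 0.13 (edgeR adjusted p = 0.315). Among values above 0 the smallest p was that of Zfp790, at 0.35 ± 0.17 (edgeR adjusted p = 0.441). With a minimum of 30 counts Zfp78 was called (edgeR adjusted p = 0.0243), and without WT Firre at 150 min its value was -0.36 and not called.

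Over time after doxycycline no member passed the test. The mean Firre response from 30 to 150 min, with both backgrounds in 1 model and change measured from 0 min relative to the control line, gave 0 called members of 111 (background 0.0%). The test over all times gave 0 (background 0.000772%, 1 interval of 129515). DESeq2 and limma-voom called 0 members as well. The mean responses above 0 with the smallest p-values were at Zfp27 (log2 1.05 ± 0.45, edgeR adjusted p = 1), whose libraries held 0.797 to 3.36 CPM, Zfp84 (0.39 ± 0.17) and Zfp120 (0.39 ± 0.19). Negative values with the smallest p were at Zfp768 (-0.31 ± 0.17), Zfp790 (-0.41 ± 0.23) and Zfp442 (-0.31 ± 0.20).

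The control lines alone, which take doxycycline without the transgene, gave 0 called members (background 0.0%). Their median log2 change from 0 min was 0.07, equal to that of protein-coding promoters (0.07). Zfp768 (0.32 ± 0.12), Zfp78 (0.30 ± 0.13) and Zfp747 (0.32 ± 0.14) had the smallest p-values above 0, and Zfp27 (-0.76 ± 0.31), Zfp945 (-0.26 ± 0.14) and Zfp120 (-0.20 ± 0.13) below 0, with edgeR adjusted p-values between 0.922 and 0.956.

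Of the listed members with an established role, Zfp143 was called in KO control against WT control and the others named here were not. Zfp57, which keeps DNA methylation at imprinted loci, had 28.0, 30.7 and 32.9 CPM in the lowest, median and highest KO Firre libraries, 26.1, 29.2 and 32.0 CPM in KO control, 23.4, 25.4 and 30.4 CPM in WT Firre, and 22.5, 25.6 and 27.6 CPM in WT control. Its KO control to WT control log2 value was 0.20 ± 0.09 (edgeR adjusted p = 0.14), and the ranges of these lines overlap. The KO Firre range (from 28.0 CPM) lies just above that of WT control (up to 27.6 CPM). Those lines differ in both genotype and transgene. Their difference was not tested, and the share of all intervals separated in this way was not counted. Zfp568, which represses a placental transcript of Igf2, had a weak intronic interval with means of 4.48 ± 0.856 CPM in KO Firre, 4.601 ± 0.715 in KO control, 3.55 ± 0.783 in WT Firre and 3.73 ± 0.833 in WT control (SD, n = 6, 6, 5 and 6), with no call (edgeR adjusted p = 0.257 for KO control against WT control). For the same comparison Zfp335 had 0.16 ± 0.08, Zfp36 0.18 ± 0.09, Zfp110, a partner of the p75 neurotrophin receptor, 0.17 ± 0.09, Zfp64 0.12 ± 0.08, Zfp30 0.02 ± 0.09, Zfp106 -0.08 ± 0.18, Zfp536, a repressor of neuronal differentiation, -0.12 ± 0.10 and Zfp217 -0.21 ± 0.21 on the log2 scale, none of them called.

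A list of 26 genes held partners of KRAB zinc finger proteins and heterochromatin factors, and 11 of them had a promoter interval. Trim28 was on the list but not among these 11. In KO control against WT control 3 of 11 were higher and 0 lower, beside 5.5% of all tested intervals and 20.7% of protein-coding promoters called higher, so the count is near that of promoters. The 3 were Trim24 (log2 0.37), the H3K9 methyltransferase Suv39h1 (0.37) and the maintenance DNA methyltransferase Dnmt1 (0.31). Setdb1 had 0.13 (edgeR adjusted p = 0.439). None of the 11 was called in KO Firre against WT Firre, KO Firre against KO control or WT Firre against WT control. The median of the list was 0.16, against 0.13 for protein-coding promoters.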

How the data were processed

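Counts were deposited by the authors as whole numbers per consensus interval and library, with no normalization. The authors' deposited annotation gives each interval's position, nearest gene and distance to its start. Peaks and counts were made on mm10 with MACS2 2.2.7.1 and featureCounts among the tools, per the submitters' processing notes. Not given in the sources used here are the read aligner, any shift for the transposase and how duplicate or multiply mapping reads were handled. Reads carry no molecular identifiers, so floors (3 counts) cover counting error only.

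Tests were run on the whole table. Intervals passed filterByExpr with a minimum of 10 counts (129515 kept), libraries were scaled by TMM, and counts were tested with the quasi-likelihood test of edgeR 4.0.16 (robust). The line fit held line and time (14 residual degrees of freedom), the time fit line, time and transgene by time (9). Adjusted p-values are Benjamini-Hochberg over all kept intervals. CPM uses TMM library sizes. Library medians used a pseudocount of 0.5 CPM. DESeq2 1.42.0, limma 3.58.1 (voom), other scalings, filters and member limits (500 and 3000 bp) were alternatives. The edgeR fits were tested on simulated counts, with changes larger than those of the called members and no shift of the promoter share. Recovery of differences as small as the calls was thus not tested. Promoter sequences and starts come from RefSeq (GRCm38.p6), and protein sequences were not used here.

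The members, gene lists and tests were chosen with earlier results of these data known. Members were named by rule: up to 10 called per direction and comparison by size, otherwise the 3 smallest p-values per direction, with the highest and lowest levels and members of established role. Clusters join neighbouring starts within 500 kb. Marker lists gave promoter intervals for 10 of 10 embryonic stem cell, 2 of 8 fibroblast, 1 of 4 primitive endoderm and 2 of 4 neural genes.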

Additional observations from a re-analysis of the deposited data

Results flagged for a closer look

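Single libraries stood apart from the rest of their line for 9 of 164 groups of values examined (members named in the report and summed CPM, by line), measured by the gap to the nearest library as a share of the range. Chance gives about 1 in 20. In KO Firre the library at 0 min was the lowest for summed CPM of all members (1896, next 2118) and of those on chromosome 7 (1211, next 1366), and for Zfp658 (20.4 CPM, next 27.8). In KO Firre Zfp952 was lowest at 90 min (8.26 CPM, next 9.65). In KO control Zfp747 was lowest at 0 min (10.9 CPM, next 15.7). In WT Firre the library at 150 min was highest for summed CPM on chromosome 7 (1461, next 1250) and for Zfp747 (19.3 CPM, next 15.7), and Zfp952 was highest at 0 min (12.1 CPM, next 10.6). In WT control Zfp536 was lowest at 150 min (9.75 CPM, next 11.8).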

How the results depend on the processing

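Of 111 members, the number called in KO control against WT control was 10 with total counts, 6 with loess offsets, 0 with the promoter share as covariate and 2 without KO control at 30 and 90 min, and 6 (without KO control at 90 min) to 31 (without KO control at 150 min) when 1 library was left out. The fit without KO control at 30 and 90 min tested 112 members. Of the called members 8 were higher with total counts and 4 with loess offsets. In the first 4 of these fits 2.98%, 2.74%, 0.01% and 1.25% of all tested intervals were called higher. For protein-coding promoters the shares were 12.7%, 5.12%, 0% and 4.54%. They were 11.4% without KO control at 90 min and 30.5% without KO control at 150 min. Libraries whose removal moved the count of called members by over 1.5 times were KO control at 30 min (10), 90 min (6), 120 min (10) and 150 min (31) and WT control at 90 min (9). In those fits, in that order, 3.72%, 2.95%, 3.43%, 8.58% and 3.22% of all tested intervals were called higher. The cause was not tested. Zfp143, Zfp78, Zfp345, Zfp446, Zfp53 and Zfp959 stayed called in each of the 23 fits without 1 library, and with the covariate Zfp78 had a log2 value of -0.025. The median for the same comparison was -0.0040 on chromosome 2 and -0.0032 on chromosome 7 with total counts, 0.0093, -0.025 and 0.053 on chromosomes 2, 7 and 17 with loess offsets, and 0.0092, -0.058 and 0.037 with the covariate, and without 1 library it ran from 0.058 to 0.17 on chromosome 2. In KO Firre against WT Firre the count was 0 with DESeq2, with total counts, with no filter, with the covariate, with no term for time and without KO control at 30 and 90 min. In those fits 0.186% (DESeq2) to 0.684% (without KO control at 30 and 90 min) of all tested intervals were called higher. Without 1 library the count was 0 to 11 (11 without WT Firre at 150 min, where 2.26% of all tested intervals were called higher). The chromosome medians then ran from 0.071 to 0.17 (chromosome 2) and 0.054 to 0.15 (chromosome 7). In KO Firre against KO control the chromosome 7 median was 0.10 without KO control at 30 and 90 min, and that of chromosome 2 ran from -0.057 to 0.048 without 1 library. In WT Firre against WT control the covariate gave -0.0612 and -0.0615 on chromosomes 2 and 7, and the count was 0 to 2 without 1 library. It was 2 without WT Firre at 90 min, where 0.131% of all tested intervals and 0.395% of protein-coding promoters were called higher. For the difference of the transgenic contrasts the count was 2 with loess offsets, 1 with a minimum of 30 counts and 0 to 2 without 1 library. In the main fit 0.266% of all tested intervals were called for this difference. No member was called in KO Firre against KO control or in the 3 time tests under any setting run. Libraries of the lines are matched by time, which is a term of each fit, and without that term 16 members were called in KO control against WT control. Depth limits members such as Zfp27, with 0.797 to 3.36 CPM.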
